A study of Mus musculus with 8 samples.

Results

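The genes described here are the 10 members of the mouse MHC class II presentation pathway that sit in the class II region or serve it directly. They are H2-Aa, H2-Ab1 and H2-Eb1, H2-DMa, H2-DMb1 and H2-DMb2, H2-Oa and H2-Ob, Cd74 and Ciita. They were taken by symbol from a table of 25247 genes whose versioned Ensembl identifiers were matched to gene symbols, and all 10 were found. RNA was sequenced in bulk from Langerhans cells, which are epidermal dendritic cells, of C57BL/6 mice, either wild type (WT) or knocked out for Ezh2 (KO). Ezh2 is the methyltransferase of Polycomb repressive complex 2. Ear epidermis was lifted off with dispase and dissociated with collagenase, and the cells were sorted as DAPI- CD45+ Ly6G- CD103- MHCII+ CD24+ EpCAM+. MHC class II protein at the surface was thus itself a gate of the sort in both genotypes. The sources used here do not name the promoter or Cre line behind the knockout, the deleted part of Ezh2, or the age and number of the mice. The labels do not say that the libraries came from separate animals, so the p-values reflect only how these libraries spread, and that spread may be technical.

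There were 8 libraries, with total counts from 11051402 to 18966195. The genotype of 4 of them is in dispute. Titles and descriptions both gave WT for RMN030 and RMN031, and both gave KO for RMN038 and RMN039. For RMN032 and RMN033 the title gave KO and the description WT, and for RMN036 and RMN037 the title gave WT and the description KO. Every comparison is therefore made 3 times: on the 4 undisputed libraries, on all 8 with the genotype of the title (title-code reading), and on all 8 with that of the description (description-code reading). The codes fall into an earlier run, RMN030 to RMN033, and a later run, RMN036 to RMN039. Genotype and code run cannot be told apart by description or among the undisputed libraries. By title, each run holds 2 WT and 2 KO libraries.

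The libraries differed in other ways that touch these comparisons. Ezh2 was between 10.5 and 22.4 CPM (counts scaled to the column total) in all 8 libraries. By title it was at 15.7 to 22.4 CPM in WT and 10.5 to 15.2 CPM in KO. Those groups did not overlap, as for 1.53% of genes lower in KO. By description it was at 14.9 to 22.4 CPM in WT and 10.5 to 19.0 CPM in KO, and the groups overlapped. The log2 fold change of Ezh2 was -0.66 in the undisputed libraries (edgeR, adjusted p = 0.455), -0.49 in the title-code reading (adjusted p = 0.998) and -0.15 in the description-code reading (adjusted p = 0.869). The 10 T cell markers summed to 232 CPM in RMN030 and 218 CPM in RMN031, against 3.37 to 8.81 CPM in the other 6 libraries. Those libraries are the undisputed WT group. Mitochondrial genes took 1.02% to 1.87% of counts in the earlier run and 3.76% to 4.03% in the later run. Of the 9 Langerhans cell markers, 0 passed the threshold in any reading, and they summed to between 19472 and 22128 CPM. Cd207, which encodes langerin, was between 9706 and 11962 CPM. B cell markers, whose cells also carry class II, summed to 0.306 to 2.64 CPM over the 5 of 7 in the table. Dermal dendritic cell markers summed to 311 to 445 CPM, most of it Sirpa at 159 to 242 CPM and Mgl2 at 104 to 165 CPM. The other markers of that list were at most 28.1 CPM, with Xcr1 at most 0.264 CPM and Clec9a at most 1.14 CPM. Of 3 plasmacytoid dendritic cell markers, Ccr9 was at 14.5 CPM in RMN030 and 19.0 CPM in RMN031, and at most 1.68 CPM elsewhere. Siglech was at most 2.64 CPM and Tcf4 at 21.9 to 29.9 CPM. In the undisputed libraries edgeR tested 2 of them and called 1, Ccr9, lower in KO, where 0.794% of genes passed. Its part in the values of the members was not tested. In bulk RNA, fewer cells of a type and less RNA per cell cannot be told apart.

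MHC class II molecules present peptides from the endosomal pathway to CD4+ T cells. An alpha and a beta chain assemble with the invariant chain, are led by it to late endosomes, and exchange its remnant for a peptide with the help of the DM dimer, which the DO dimer restrains. The coactivator CIITA does not bind DNA itself but is recruited to class II promoters by factors on the conserved X and Y boxes (RFX, CREB and NF-Y), and the genes for the chains, the invariant chain, DM and DO answer to it. Langerhans cells hold a large endosomal pool of class II and bring it to the surface when they mature and leave the skin.

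Promoter sequence is shown for the members because they share this control in textbook descriptions. RefSeq promoters of GRCm38.p6 (250 bases before to 50 after a start site) were matched for 7 of the 10 members, with 8 start sites, and were not matched for H2-Ab1, Cd74 and Ciita. The letters GATTGG, the core of the Y box, were searched on the gene strand within 100 bases before the start and were found in 6 of the 7 members, all except H2-DMa. Of 32851 promoters, 4.58% held them there. The letters ACNGATG, part of the X box, followed by GATTGG after 5 to 40 bases on the same strand, were found in 3 members (H2-Eb1, H2-DMb1 and H2-DMb2) and in 0.113% of all promoters. The spacing searched leaves no overlap between the 2 motifs, and other spellings of the X box were not searched. On either strand of the 250 bases before the start, ACNGATG was in 8.31% and GATTGG in 14.6% of promoters. A match is a description of the letters and not of binding. The stretches of 66 bases that end with the Y box letters are printed 5′ to 3′ on the gene strand, with GATTGG in capitals and ACNGATG in capitals where it precedes it within that spacing. That of H2-DMb1, where the gap was 22 bases, is not printed because 63 of its 66 bases lie in annotated exons.
H2-Eb1: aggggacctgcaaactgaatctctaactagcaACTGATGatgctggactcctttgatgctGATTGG
H2-DMb2: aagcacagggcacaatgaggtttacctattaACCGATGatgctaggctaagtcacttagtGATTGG
H2-Aa: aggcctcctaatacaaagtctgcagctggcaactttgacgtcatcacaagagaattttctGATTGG
H2-Oa: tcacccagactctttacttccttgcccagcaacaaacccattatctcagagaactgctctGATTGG
H2-Ob: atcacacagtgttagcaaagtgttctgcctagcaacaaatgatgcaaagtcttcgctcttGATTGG
They lie at chr17:34305747-34305812 (plus strand) for H2-Eb1, chr17:34145098-34145163 (plus) for H2-DMb2, chr17:34287867-34287932 (minus) for H2-Aa, chr17:34092275-34092340 (plus) for H2-Oa and chr17:34238787-34238852 (plus) for H2-Ob. The gap between both motifs was 21 bases in H2-Eb1 and 22 bases in H2-DMb2. The Y box letters ended 54 bases before the start in H2-Eb1, 85 in H2-DMb2, 43 in H2-Aa, 38 in H2-Oa and 52 in H2-Ob. The stretch of H2-DMb2 lies in an intron of the longer GENCODE model of that gene, and the other 4 printed stretches overlap annotated exons by at most 1 base. The same Y box letters thus stood before both classical chain genes matched here, 2 DM genes and both DO genes, genes whose levels lay far apart.

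The classical chains and the invariant chain were among the most abundant transcripts of these cells. Cd74, the invariant chain (ENSMUSG00000024610.13, GRCm38 chr18:60803848-60812652, plus strand), ranked 1 of 25247 genes by CPM in each of the 8 libraries. It was at 34288 and 31009 CPM (RMN030, RMN031), 28272 and 31386 CPM (RMN032, RMN033), 30615 and 29241 CPM (RMN036, RMN037), and 28999 and 30923 CPM (RMN038, RMN039). RMN030 was the highest and RMN032 the lowest, and the highest was 1.21 times the lowest, the narrowest spread of the 10 members.

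H2-Ab1, the beta chain of I-A (ENSMUSG00000073421.5, chr17:34257689-34269419, plus strand), ranked 2 throughout. It was at 29585 and 23249 CPM (RMN030, RMN031), 21175 and 25180 CPM (RMN032, RMN033), 23943 and 21494 CPM (RMN036, RMN037), and 22784 and 24698 CPM (RMN038, RMN039). The library RMN030 again stood above the other 7, which lay between 21175 and 25180 CPM. H2-Aa, the alpha chain of I-A (ENSMUSG00000036594.13, chr17:34282744-34287823, minus strand), ranked 4 to 6. It was at 15825 and 13483 CPM (RMN030, RMN031), 11657 and 13080 CPM (RMN032, RMN033), 11680 and 10890 CPM (RMN036, RMN037), and 12862 and 13120 CPM (RMN038, RMN039). By title, the WT libraries held both the highest and the lowest of these values, with the KO libraries between them. H2-Eb1, the beta chain of I-E (ENSMUSG00000060586.10, chr17:34305867-34316674, plus strand), ranked 3 to 5. It was at 18035 and 14854 CPM (RMN030, RMN031), 12976 and 14659 CPM (RMN032, RMN033), 13266 and 12384 CPM (RMN036, RMN037), and 14189 and 14230 CPM (RMN038, RMN039). C57BL/6 mice are known to carry a deletion in the I-E alpha gene and to lack I-E at the surface, so this beta chain has no usual partner in them. The pseudogene model H2-Ea-ps was between 0.216 and 2.27 CPM.

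Together, H2-Aa, H2-Ab1, H2-Eb1 and Cd74 took 9.77% of counts in RMN030, with a 95% Wilson interval of 9.76% to 9.79%, and 8.26% in RMN031. Their share was 7.41% and 8.43% (RMN032, RMN033), 7.95% and 7.40% (RMN036, RMN037), and 7.88% and 8.30% (RMN038, RMN039). The intervals cover counting error only and are far narrower than the spread between libraries. By exact two-sided permutation tests, the log2 summed level differed by -0.05 between KO and WT in the title-code reading (p = 0.686, n = 4 each, adjusted p = 0.943) and by -0.10 in the description-code reading (p = 0.371, n = 4 each, adjusted p = 0.810). In both readings the groups overlapped.

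**Figure D1:**
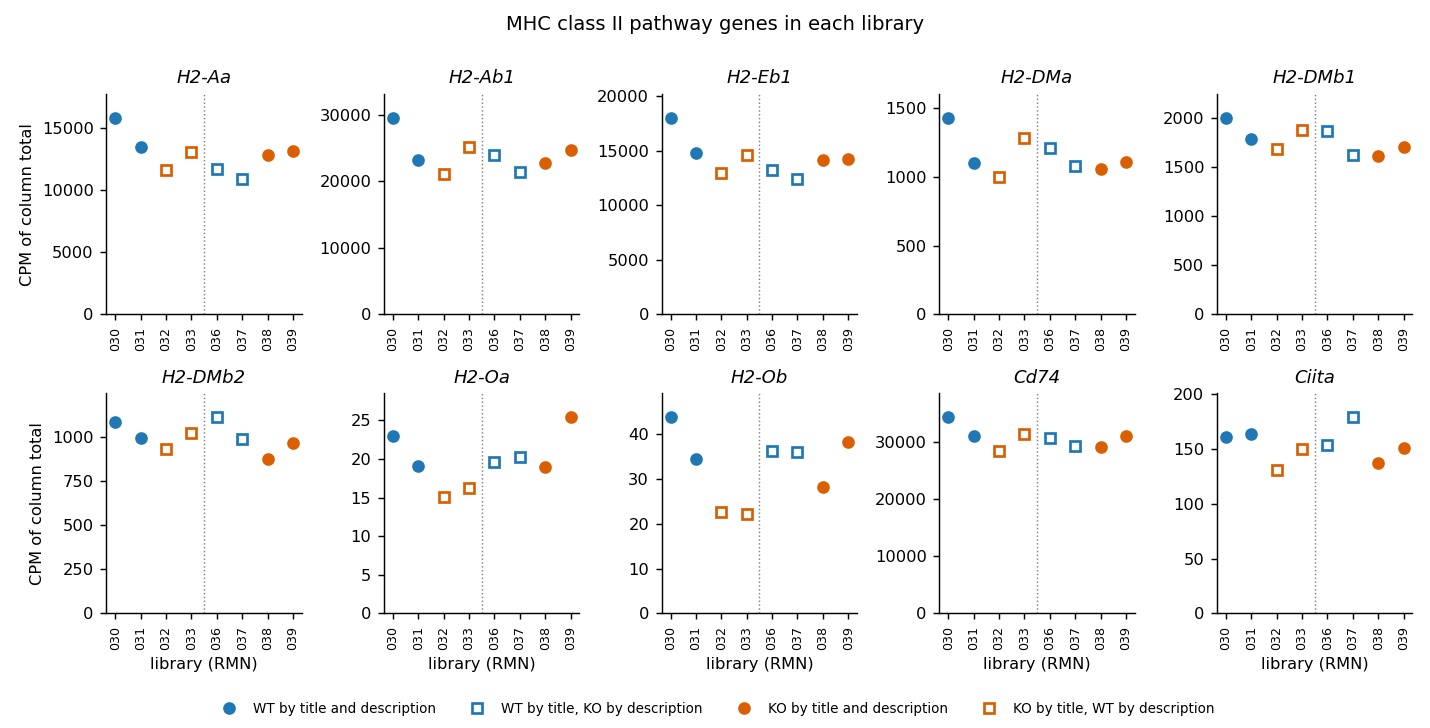
Level of each of the 10 genes in CPM of the column total (vertical axes, from 0) in the 8 libraries (horizontal axes, by code). Each point is 1 library, the dotted line separates the code runs, colour gives the genotype by title and open squares mark libraries whose description gives the other genotype. RMN030 is the highest library for H2-Aa, H2-Ab1, H2-Eb1, H2-DMa, H2-DMb1, H2-Ob and Cd74.

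The DM genes lay well below the classical chains. H2-DMb1, a beta chain of DM (ENSMUSG00000079547.3, chr17:34153072-34160230, plus strand), was between 1607 CPM in RMN038 and 1997 CPM in RMN030, with a median of 1743. H2-DMb2, the second beta chain gene (ENSMUSG00000037548.13, chr17:34143307-34151555, plus strand), was between 876 CPM in RMN038 and 1115 CPM in RMN036, with a median of 991. The coding sequences of these genes are identical at 751 of 783 aligned bases (95.9%), and 27.2% of the 50-base windows of the H2-DMb1 transcript occur in H2-DMb2. The sources used here do not say how reads from the shared stretches were counted, so the split between both genes is uncertain and their sum is used in the ratios. H2-DMa, the alpha chain of DM (ENSMUSG00000037649.9, chr17:34119541-34139101, plus strand), was between 1000 CPM in RMN032 and 1430 CPM in RMN030, with a median of 1105. Its annotated span overlaps Brd2 on the opposite strand, whose counts came to 28.5% of those of H2-DMa. The sources used here do not give the strand setting of the counting, so reads of overlapping exons may have been lost or shared.

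The DO genes were detected at a low level in every library. H2-Oa, the alpha chain of DO (ENSMUSG00000024334.8, chr17:34092340-34095234, plus strand), was at 23.0 and 19.1 CPM (RMN030, RMN031), 15.0 and 16.2 CPM (RMN032, RMN033), 19.6 and 20.2 CPM (RMN036, RMN037), and 18.9 and 25.4 CPM (RMN038, RMN039). It rests on 245 to 354 counts a library. The highest and the lowest value were both in libraries titled KO. H2-Ob, the beta chain of DO (ENSMUSG00000041538.14, chr17:34238903-34254414, plus strand), was at 43.8 and 34.4 CPM (RMN030, RMN031), 22.6 and 22.3 CPM (RMN032, RMN033), 36.1 and 35.9 CPM (RMN036, RMN037), and 28.2 and 38.2 CPM (RMN038, RMN039). It rests on 368 to 638 counts a library, and with a highest value 1.97 times the lowest it had the widest spread of the members. RMN032 and RMN033, titled KO in the earlier run, were the lowest libraries for both chains. DO is known above all from B cells and thymic epithelium. The B cell markers summed to 1.14 to 2.64 CPM in the libraries titled WT and 0.306 to 0.949 CPM in those titled KO. Each of them rests on at most 30 counts a library. The part of such cells in the DO values was not tested.

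Ciita, the coactivator (ENSMUSG00000022504.9, chr16:10480059-10528418, plus strand), was at 161 and 164 CPM (RMN030, RMN031), 131 and 150 CPM (RMN032, RMN033), 153 and 179 CPM (RMN036, RMN037), and 137 and 151 CPM (RMN038, RMN039). By title the WT libraries lay between 153 and 179 CPM and the KO libraries between 131 and 151 CPM, with no overlap, as for 1.53% of genes lower in KO. By description the groups overlapped. The annotated span of Ciita overlaps Dexi on the opposite strand, whose counts came to 5.44% of those of Ciita.

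Per kilobase of the union of annotated exons, the order of levels was Cd74 at 18220 ± 1110 CPM per kb (SD over the 8 libraries), H2-Ab1 at 9351 ± 1034, H2-Eb1 at 7368 ± 889, H2-Aa at 3377 ± 398, H2-DMb1 at 1050 ± 81.3, H2-DMb2 at 571 ± 44.4 and H2-DMa at 336 ± 40.9. Ciita at 16.1 ± 1.59, H2-Oa at 14.0 ± 2.39 and H2-Ob at 6.07 ± 1.4 CPM per kb came last. Ciita and H2-Oa differed by less than the SD of H2-Oa. The order depends on the length used. Per kilobase of the principal transcript, H2-Aa was at 11369 ± 1341 CPM per kb and above H2-Eb1 at 8582 ± 1035, since the union of exons of H2-Aa is 3798 bases long and its principal transcript 1128 bases. Comparisons between libraries do not depend on it.

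Ratios between chains within a library remove whatever scales all of them alike. On counts per kilobase of the exon union, H2-Aa to H2-Ab1, the alpha to beta ratio of I-A, was between 0.330 in RMN036 and 0.392 in RMN031, and on principal transcripts between 0.524 and 0.623. H2-Eb1 to H2-Ab1 was between 0.732 and 0.844, the invariant chain to H2-Aa plus H2-Ab1 between 1.30 and 1.55, and H2-DMa to both DM beta genes between 0.189 and 0.229. Each of these had a highest value at most 1.21 times its lowest. H2-DMb1 to H2-DMb2 was between 1.70 and 1.91, with the reservation on their shared sequence.

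DM to DO, here H2-DMa plus H2-DMb1 plus H2-DMb2 over H2-Oa plus H2-Ob per kilobase, bears on the balance between peptide editing and its restraint at the level of RNA. It was 90.9 and 97.8 (RMN030, RMN031), 123 and 132 (RMN032, RMN033), 102 and 87.6 (RMN036, RMN037), and 94.5 and 75.0 (RMN038, RMN039). The highest ratio was 1.76 times the lowest. H2-Oa and H2-Ob varied more across libraries than the DM genes, with coefficients of variation of 17.1% and 23.4% against 7.74% to 12.2%. By title the mean log2 ratio was 0.14 higher in KO (exact two-sided permutation test, p = 0.486, n = 4 each, adjusted p = 0.810). That difference was 0.44 within the earlier run, where both KO libraries lay above both WT libraries, and -0.16 within the later run, where they overlapped. By description the ratio was 0.30 lower in KO on the log2 scale, a difference of -0.30 (exact two-sided permutation test, p = 0.171, n = 4 each, adjusted p = 0.810). No call was made in either reading.

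H2-Oa to H2-Ob, the alpha to beta ratio of DO, was 2.01 in RMN030, 2.12 in RMN031, 2.07 in RMN036 and 2.15 in RMN037, the libraries titled WT. It was 2.55 in RMN032, 2.78 in RMN033, 2.56 in RMN038 and 2.55 in RMN039, the libraries titled KO. The title groups did not overlap over all 8 libraries, and so could not overlap within either run. The log2 difference was 0.32 over all 8 libraries, 0.37 within the earlier and 0.27 within the later run, with p = 0.0286 in the exact two-sided permutation test (n = 4 each), the smallest p that 4 against 4 can give. Over the 20 tests on 10 quantities in both readings, the adjusted p was 0.571, and 1 of 20 unadjusted p-values and 0 adjusted ones were under 0.05. By description the difference was -0.01 (exact permutation p = 0.914, n = 4 each). The 95% counting interval of a single library was 1.75 to 2.31 in RMN030 and 2.40 to 3.22 in RMN033, which do not overlap, and among the other pairs of a WT and a KO library by title only RMN036 with RMN033 had intervals without overlap. These intervals take each count as independent and may be too narrow if mates were counted separately.

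**Figure D2:**
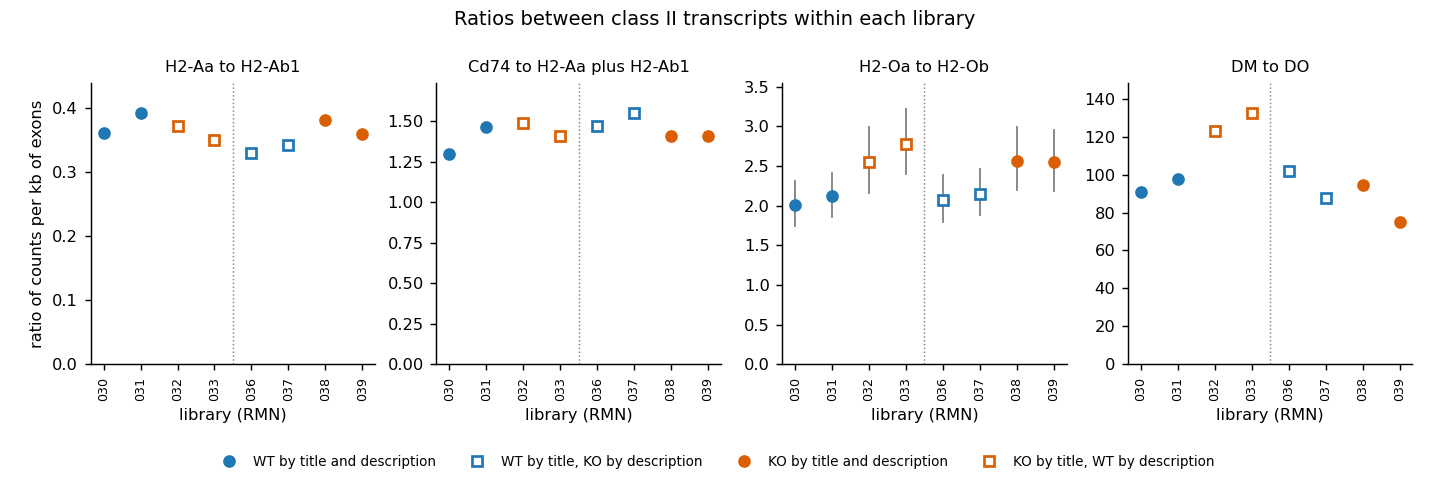
Ratios of counts per kilobase of exon union (vertical axes, from 0) in each library (horizontal axes, by code), coloured by title genotype with open squares for disputed libraries; grey bars on H2-Oa to H2-Ob are 95% counting intervals. H2-Oa to H2-Ob is 2.01 to 2.15 in the libraries titled WT and 2.55 to 2.78 in those titled KO, while DM to DO is highest in RMN032 and RMN033.

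KO was compared with WT by edgeR's quasi-likelihood test over all genes, p-values adjusted by Benjamini-Hochberg and a call at an adjusted p under 0.05. In the undisputed libraries 0 of the 10 members passed, where 0.794% of 14727 tested genes did, and 0 members had an unadjusted p under 0.05, against 11.3% of genes. DESeq2 and limma voom also called 0 members there. Of the members, 9 had a negative and 1 a positive log2 fold change, with a median of -0.13, and 50.2% of all genes were negative. The values ran from -0.19 (SE 0.25) for H2-Ob to 0.12 (SE 0.28) for H2-Oa, and H2-Eb1 was at -0.17 (SE 0.13). In CPM, 6 members (H2-Aa, H2-Eb1, H2-DMb1, H2-DMb2, Cd74 and Ciita) were lower in both KO libraries than in both WT libraries, against 25.2% of all genes, and 0 were higher, against 16.9%. On library sizes scaled by TMM (the trimmed mean of M-values), only Ciita did not overlap among the members, lower in KO, against 21.9% of all genes. The sign of the median rests on RMN030. Without it the median was 0.01 with 6 members positive. Without RMN031, which leaves RMN030 alone as WT and assumed to vary like the KO group, the median was -0.26 and edgeR called 4.02% of 15628 genes, and 1.38% as lower in KO. Among these were 4 members, namely H2-Aa (-0.27, adjusted p = 0.0110), H2-Ab1 (-0.30, adjusted p = 0.00348), H2-Eb1 (-0.33, adjusted p = 0.00115) and H2-DMa (-0.38, adjusted p = 0.00802). RMN030 and RMN031 are also the libraries with T cell markers at over 200 CPM, and the part of those cells in these values was not tested.

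In the title-code reading, 0 of 10 members passed edgeR's threshold, where 0.0% of 14630 genes did. DESeq2 called 19 genes and limma voom 0, and neither called a member. At an unadjusted p under 0.05 there were 672 genes (4.59%) and 2 members. These were H2-Ob at -0.44 (SE 0.20, edgeR adjusted p = 0.998) and Ciita at -0.21 (SE 0.10, edgeR adjusted p = 0.998). All 10 members had a negative log2 fold change in this fit, with a median of -0.10, where 50.7% of all genes were negative. The classical chains were nearest to 0, with H2-Aa at -0.04 (SE 0.11), H2-Eb1 at -0.07 (SE 0.11) and H2-Ab1 at -0.07 (SE 0.11), and Cd74 was at -0.07 (SE 0.08). The DM genes were at -0.12 (SE 0.11) for H2-DMa, -0.09 (SE 0.09) for H2-DMb1 and -0.15 (SE 0.08) for H2-DMb2. In CPM the groups did not overlap for 1 member, Ciita, against 1.53% of genes without overlap and lower in KO. On TMM-scaled sizes the Ciita groups overlapped. Without RMN030 and RMN031 together, a fit added after seeing the data, 7 members were negative and 3 positive, with H2-Aa at 0.16, H2-Ab1 at 0.04 and H2-Eb1 at 0.12, and edgeR called 0 members. Without RMN030 alone the members were likewise 7 negative and 3 positive, with a median of -0.02.

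In the description-code reading, 0 of 10 members passed edgeR's threshold, where 2.02% of 14630 genes did, and 0 had an unadjusted p under 0.05, against 12.6% of genes. DESeq2 and limma voom called 0 members as well. Here 4 members were positive and 6 negative, with a median of -0.04, where 51.1% of all genes were negative. H2-Oa was at 0.24 (SE 0.19), H2-Ob at 0.21 (SE 0.22), Ciita at 0.07 (SE 0.11) and H2-DMb2 at 0.01 (SE 0.09), while H2-Eb1 at -0.12 (SE 0.10) and H2-Aa at -0.11 (SE 0.11) were lowest. In CPM, 0 members had groups without overlap, against 8.82% of genes. When code run was tested beside the title genotype, 0 of 10 members passed, where 2.34% of genes did. The members thus had no call by genotype or by run. Without RMN030 alone, 7 members were positive and 3 negative, with a median of 0.05. Without RMN030 and RMN031 together, 9 members were positive and 1 negative, with a median of 0.06. The 3 readings share libraries and are not independent of each other.

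**Figure D3:**
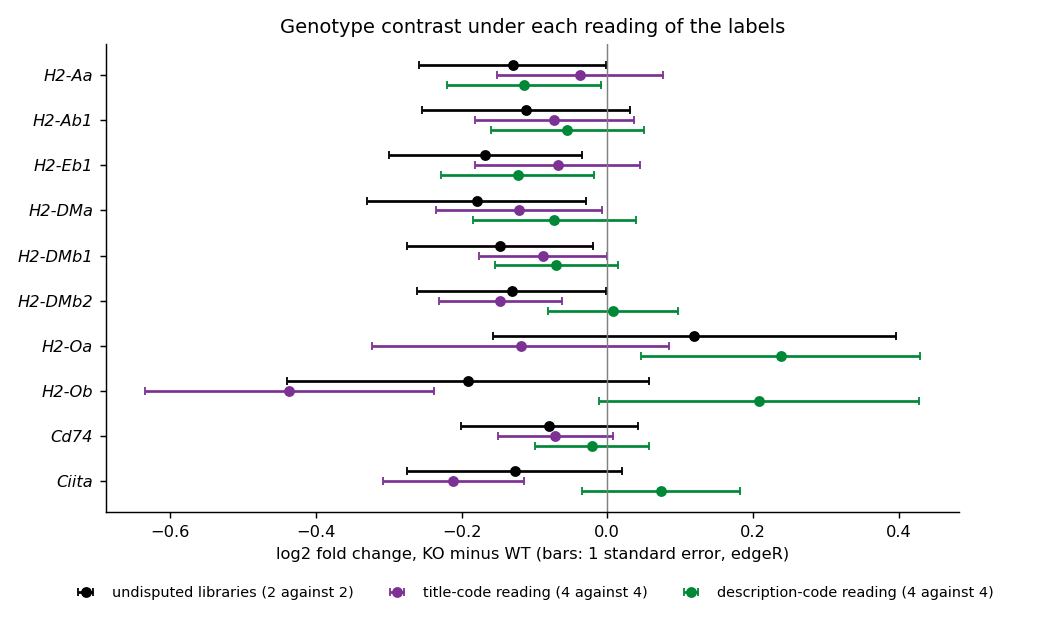
Log2 fold change of KO minus WT (horizontal axis) for each of the 10 genes (rows) by edgeR in the undisputed libraries, the title-code reading and the description-code reading, with bars of 1 standard error. All 10 purple points of the title-code reading lie below 0, H2-Ob farthest at -0.44, and the green points of the description-code reading lie on both sides, from -0.12 for H2-Eb1 to 0.24 for H2-Oa.

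By title, genotypes can also be compared within each code run, 2 libraries against 2. In the earlier run 0 members passed edgeR's threshold, where 0.375% of 15220 genes did, and all 10 were negative with a median of -0.24, against 50.1% of genes. H2-Ob was lowest at -0.84 (SE 0.22, edgeR adjusted p = 0.260), the only member with an unadjusted p under 0.05, against 7.6% of genes. H2-Oa was at -0.47 (SE 0.25), H2-Eb1 at -0.29 (SE 0.14) and H2-Aa at -0.28 (SE 0.13). The WT libraries of this comparison are RMN030 and RMN031, and all 10 T cell markers were called lower in its KO libraries.

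In the later run 0 members passed, where 0.0% of 14934 genes did by edgeR and 1098 genes (7.35%) and 2 members had an unadjusted p under 0.05. There 5 members were positive and 5 negative. H2-Aa was at 0.23 (SE 0.05, edgeR adjusted p = 0.451), and H2-Eb1 at 0.18 (SE 0.05, edgeR adjusted p = 0.505). H2-Ob was at -0.09 (SE 0.21), H2-DMb2 at -0.16 (SE 0.08) and Ciita at -0.18 (SE 0.11). Of the members, 5 were negative in both runs (H2-DMa, H2-DMb1, H2-DMb2, H2-Ob and Ciita), against 24.5% of genes. In CPM, Ciita alone of the members was lower without overlap in both runs by title, as were 3.56% of all genes. For Ciita this follows from the lack of overlap over all 8 libraries and is not a second result.

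The difference between runs was tested as an interaction. Of the members 0 passed edgeR's threshold, where 0.0186% of 16146 genes did, and 3 had an unadjusted p under 0.05, against 7.93% of genes. The contrast was higher in the later run by 0.52 for H2-Aa (SE 0.15, edgeR adjusted p = 0.386), by 0.48 for H2-Eb1 (SE 0.16, edgeR adjusted p = 0.456) and by 0.76 for H2-Ob (SE 0.31, edgeR adjusted p = 0.570). For Ciita it was 0.08 (SE 0.18). No member's difference between runs passed the threshold.

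**Figure D4:**
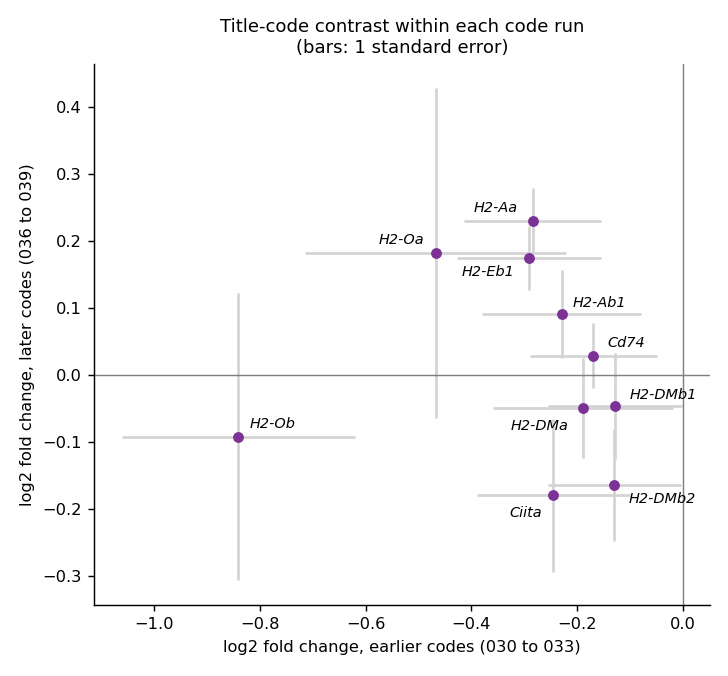
Log2 fold change of KO minus WT by title within the earlier codes (horizontal axis) against that within the later codes (vertical axis) for the 10 genes, with bars of 1 standard error. All points lie left of 0, with H2-Ob at -0.84 on the horizontal axis, and H2-Aa, H2-Eb1, H2-Ab1, H2-Oa and Cd74 lie above 0 on the vertical axis.

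Across the 8 libraries, the classical chains varied together once the mean of each run was subtracted. H2-Aa and H2-Eb1 had a Pearson r of 0.99, H2-Ab1 and Cd74 of 0.98, and H2-Aa and H2-Ab1 of 0.90, on log2 TMM-scaled CPM. H2-Oa and H2-Ob had an r of 0.89, and H2-DMb1 and H2-DMb2, which may share reads, of 0.91. H2-DMa and H2-DMb1 had r of 0.68 to 0.93 with the classical chains, and H2-DMb2 had r of 0.37 for H2-Aa, 0.47 for H2-Eb1 and 0.69 for H2-Ab1. Ciita went along with the others less, with r of 0.26 for H2-Aa, 0.38 for H2-Ab1 and 0.72 for H2-Ob. These are descriptions over 8 libraries that share their depth and composition. RMN030 was the highest library for H2-Aa, H2-Ab1, H2-Eb1 and Cd74. How far these r values, and those with their mean given next, rest on that library was not tested.

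Among 7801 genes at a mean of at least 10 CPM, those most like the mean of H2-Aa, H2-Ab1, H2-Eb1 and Cd74 were Atp5d (r = 0.996), Fxyd5 (0.990), H3f3a (0.983), Fth1 (0.980) and Arpc1b (0.980). They encode a subunit of the ATP synthase, a regulator of the sodium pump, a histone H3.3, the ferritin heavy chain and a subunit of the actin-nucleating ARP2/3 complex. Ciita ranked 1983 of these 7801 genes, with r = 0.37. Most like Ciita itself among 7804 genes were Vac14 (0.987), Pik3r6 (0.979), Tap1 (0.972), Ddx49 (0.971) and Tfeb (0.969). Tap1 is a chain of the peptide transporter of MHC class I loading and Tfeb a transcription factor of lysosomal genes.

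The other genes of the pathway gave few calls. Of 7 promoter factors (Rfx5, Rfxank, Rfxap, Creb1, Nfya, Nfyb and Nfyc), 0 were called in the undisputed libraries and in both readings of all 8, with a median log2 fold change of -0.25 in the undisputed libraries, -0.01 by title and -0.11 by description. Nfya, a subunit of the factor that binds the Y box, was at -0.38 (SE 0.16) by description with an edgeR adjusted p of 0.339. Of 8 regulators of Ciita, 0 were called in these fits. Irf4 was at 0.27 (SE 0.12) by title, edgeR adjusted p = 0.998, and Socs1, an inhibitor of cytokine signalling, at 0.64 (SE 0.20) by description, edgeR adjusted p = 0.149, and DESeq2 called it there (adjusted p = 0.0433). Irf4 was higher in RMN038 at 271 CPM and RMN039 at 259 CPM than in the other 6 libraries, which lay between 177 and 228 CPM.

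Of 9 genes of antigen processing, among them proteases that cut the invariant chain or antigens, the reductase Ifi30 and the protease inhibitor Cst3, 0 were called in these fits, with a median log2 fold change of 0.03 in the undisputed libraries, -0.07 by title and 0.08 by description. Ctss, the main protease of the invariant chain in dendritic cells, was between 772 and 922 CPM, and Ctsb was at 0.22 (SE 0.08) by description, edgeR adjusted p = 0.249. Of 3 genes of surface turnover, 0 were called. Cd83, which opposes the ubiquitin ligase March1 at the class II tail, was at 3516 CPM (median of 8 libraries) and at -0.32 (SE 0.09) by description, edgeR adjusted p = 0.125.

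Of 9 genes of class II transport, 1 was called in the undisputed libraries and 0 by title or description. Lamp1, a major protein of the late endosome membrane, rose by 0.85 (SE 0.17, edgeR adjusted p = 0.0443) in KO. It was at 175 and 148 CPM (RMN030, RMN031), 77 and 39.1 CPM (RMN032, RMN033), 299.8 and 295 CPM (RMN036, RMN037), and 319 and 248 CPM (RMN038, RMN039). The later run was thus higher in every library, whichever genotype its title gave, and code run tested beside title genotype gave 1.62 (SE 0.28, edgeR adjusted p = 0.00930). Without RMN038 the undisputed value of Lamp1 was 0.66 and the call was lost (edgeR adjusted p = 0.165). By description Lamp1 was at 1.44 (SE 0.40, edgeR adjusted p = 0.137), and DESeq2 (adjusted p = 0.0486) and limma voom (adjusted p = 0.00516) called it there.

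Of 10 genes of dendritic cell maturation, 3 were called higher by description, where edgeR called 2.02% of 14630 genes. By title or in the undisputed libraries edgeR called 0 of them. By title 4 had a positive log2 fold change, with a median of -0.07, where 50.7% of all genes were negative. In the undisputed libraries 9 were positive, with a median of 0.40, where 50.2% of all genes were negative. By description 7 had a positive log2 fold change, among them Ccr7 at 0.245 and Cd40 at 0.24, which were not called. Cd80 was at -0.41, Relb at -0.07 and Cd86 at -0.0035, also without a call. Fscn1, which bundles actin in mature dendritic cells, rose by 1.61 (SE 0.27, edgeR adjusted p = 0.00661), Samsn1, a signalling adaptor, by 1.54 (SE 0.28, edgeR adjusted p = 0.0117) and Traf1, an adaptor of TNF receptors, by 0.63 (SE 0.13, edgeR adjusted p = 0.0217). These and Socs2 (1.37, SE 0.32, edgeR adjusted p = 0.0491) were also the calls for code run beside title genotype, and the labels cannot separate description genotype from run. The call of Traf1 was lost with any of 7 of the 8 libraries left out, every one but RMN030, at edgeR adjusted p-values of 0.0537 to 0.0899. By description Socs2 was at 1.29 (SE 0.34, edgeR adjusted p = 0.0732), and DESeq2 (adjusted p = 0.0127) and limma voom (adjusted p = 0.0480) called it there. In the undisputed libraries DESeq2 called Samsn1 (1.66, adjusted p = 0.0442), and edgeR with no filter on low counts called Samsn1 (adjusted p = 0.00207), Socs2 (adjusted p = 0.0143) and Fscn1 (adjusted p = 0.0356). Mitochondrial share moved with the same split by run. So did markers of other cells: by description all 4 mast cell markers and all 5 blood markers were called higher in KO, with mast cell markers summing to 2.16 to 5.76 CPM in the earlier and 23.3 to 47.4 CPM in the later run and blood markers to 122 to 226 CPM and 580.2 to 1355 CPM. The 8 macrophage or monocyte markers, whose cells also carry class II, summed to 399 to 504 CPM in the earlier and 538 to 595 CPM in the later run, and by description Lyz2 (1.15, edgeR adjusted p = 0.00456) and F13a1 (2.14, edgeR adjusted p = 0.0119) were called higher. These 2 and Cd163 (2.14, edgeR adjusted p = 0.0318) were also called higher in the undisputed libraries. Among the 7 of these markers tested, 4 had a positive log2 fold change there and 5 by description. Adgre1, at 309 to 414 CPM, made up most of the summed level. In the undisputed libraries its mean was 372 CPM in WT and 326 CPM in KO, and that of Cd14 was 37.1 and 27.2 CPM. The 7 keratinocyte markers summed to 10633 to 13728 CPM, and by description Krt1 (0.87, edgeR adjusted p = 0.0163) and Krt79 (1.11, edgeR adjusted p = 0.00768) were called higher and Trp63 (-0.74, edgeR adjusted p = 0.0226) lower. Krt79 and Trp63 were also called, in the same directions, in the undisputed libraries. By description the call of Krt1 was lost without RMN032 or RMN036 (edgeR adjusted p = 0.0574 and 0.0620) and that of Trp63 without RMN032, RMN033, RMN038 or RMN039 (edgeR adjusted p of 0.0636 to 0.0768), and the undisputed call of Trp63 was lost without RMN038 (edgeR adjusted p = 0.0863). Without RMN030 and RMN031 together the call of Krt79 by description was lost (edgeR adjusted p = 0.101). The part of these in the result was not tested. Of the 9 genes of the interferon gamma response, 7 were tested and 0 called in the undisputed libraries and in both readings of all 8. Within the earlier run by title, Gbp4, an interferon-induced GTPase, fell by 3.51 on the log2 scale (SE 0.44, edgeR adjusted p = 0.00568), from 7.79 and 13.3 CPM to 1.04 and 0.844 CPM. In the undisputed libraries Gbp4 was at -2.12 (SE 0.48, edgeR adjusted p = 0.0832), and DESeq2 called it there (adjusted p = 0.0191). The WT libraries there were those with T cell markers, whose part was not tested. The class II gene H2-Eb2 was at a median of 10.9 CPM and was not called.

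**Figure D5:**
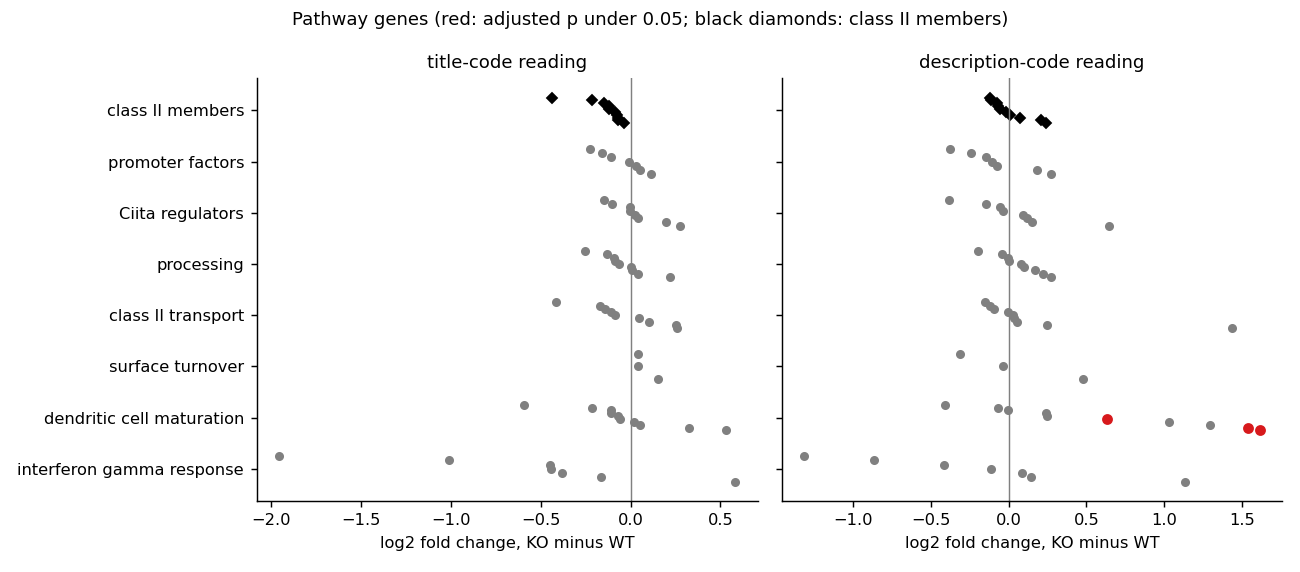
Log2 fold change of KO minus WT by edgeR (horizontal axes, with different ranges) for the 10 class II members (black diamonds) and the genes of 7 pathway lists (circles, 1 row a list) in the title-code reading (left) and the description-code reading (right); red marks an adjusted p under 0.05. The red points are Fscn1, Samsn1 and Traf1 by description, between 0.63 and 1.61, and the members lie between -0.44 and 0.24 in both panels.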

How the data were processed

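The deposited values are whole-number counts of reads per gene in 8 libraries. The tools named in the submitters' processing notes are STAR (2.5.2b) and featureCounts (1.5.0), and the build is GRCm38 (mm10). The annotation release, strand setting and handling of read pairs and multimapped reads are not given in the sources used here. Of counts from 1 to 20, 60.1% were even, so mates may have been counted separately and counting intervals may be too narrow. Identifiers were matched to symbols (25080 of 25247), with coordinates and exon lengths from GENCODE for GRCm38 and promoters from RefSeq. The 0 unused columns leave no value out. edgeR 4.0.16 (R 4.3.3) was run on all genes with filterByExpr, TMM and robust quasi-likelihood fits, KO minus WT, and tested on simulated data. Changes were seeded only in genes above a minimum mean count, and no difference between code runs was simulated. In the undisputed design it recovered 40% of seeded 2-fold and 83% of seeded 4-fold changes, and 11 of 134 calls were false. By title and by description it recovered 70% of 2-fold changes, with 7 and 4 of 170 calls false. Of 4-fold changes it recovered 93% by title and 96% by description. Standard errors come from the F statistic. Ratios were compared by exact permutation. DESeq2 1.42.0, limma 3.58.1 voom, other filters and scalings, a code run covariate, the replicate block and left-out libraries were alternatives. The members and lists were chosen with earlier results of these data known. Named genes were the 10 members, list genes called in a reading or with the smallest p (T cell, mast cell and blood markers by sums and counts only), and the 5 genes nearest to each pattern.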

Additional observations from a re-analysis of the deposited data

Results flagged for a closer look

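In groups of 4 libraries, 3 of the 80 groups examined had a library far from the others by Dixon's criterion, and chance gives about 1 in 20, or 4.0. H2-Oa to H2-Ob was 2.78 in RMN033, against 2.55 to 2.56 in the other libraries titled KO. The ratio of Cd74 to H2-Aa plus H2-Ab1 was 1.49 in RMN032, against 1.41 in the other 3 titled KO. Ciita per 1000 of H2-Ab1 was 2.25 in RMN037, against 1.62 to 1.72 in the other libraries described as KO.

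For 3 quantities, both KO libraries lay on 1 side of both WT libraries in the earlier run by title and on the other side in the later run. The contrast in log2 CPM was higher in the later run by 0.45 for H2-Aa and by 0.40 for H2-Eb1, for which the edgeR interaction gave adjusted p-values of 0.386 and 0.456. For DM to H2-Aa plus H2-Ab1 the later contrast minus the earlier was -0.31 on the log2 scale, and that difference was not tested.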

How the results depend on the processing

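RLE size factors, a filter at 1 CPM and, by title, code run as a covariate called 0 members and kept counts of called genes within 1.5 times. In the undisputed libraries, edgeR called 117 genes, DESeq2 305 and edgeR with no filter 440. By title the counts were 0, 19 and 1, and by description DESeq2 called 660 genes against 296. The replicate numbers were not taken as pairs: same-numbered libraries correlated at 0.0585 to 0.11 by title and -0.0023 to 0.027 by description, and 2 of 8 and 1 of 8 correlated best with their own number. With the replicate block, 0 genes were called by title and 174 by description, and 0 members in either. With that block by description, Traf1 (0.64, edgeR adjusted p = 0.0522) and Trp63 (-0.74, edgeR adjusted p = 0.0745) were no longer called and Lamp1 was (1.65, edgeR adjusted p = 0.0206). The undisputed groups share no number.

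Leaving out 1 library at a time moved the called genes to 263 to 629 in the undisputed libraries, with 0 to 4 members called, and to 140 to 219 by description. The log2 fold changes then ranged in the undisputed libraries from -0.27 to 0.007 for H2-Aa, -0.30 to 0.091 for H2-Ab1, -0.38 to 0.040 for H2-DMa, -0.12 to 0.32 for H2-Oa, -0.44 to 0.011 for H2-Ob and -0.18 to 0.011 for Cd74. By title they ranged from -0.12 to 0.084 for H2-Aa, -0.14 to 0.04 for H2-Ab1 and -0.15 to 0.060 for H2-Eb1. By description they ranged from -0.14 to 0.060 for H2-Ab1, -0.16 to 0.039 for H2-DMa, -0.054 to 0.061 for H2-DMb2, -0.077 to 0.044 for Cd74 and -0.0007 to 0.13 for Ciita. Without RMN030 and RMN031 together, added after seeing the data, the signs turned by title for H2-Aa (0.16), H2-Ab1 (0.039) and H2-Eb1 (0.12), and by description for H2-Aa (0.032), H2-Ab1 (0.062), H2-Eb1 (0.028), H2-DMa (0.022) and Cd74 (0.064). Voom turned Cd74 by description to 0.0037. The cause was not tested.

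Among log2 ratio differences, each with 1 library left out, the undisputed values ranged from -0.083 to 0.034 for H2-Aa to H2-Ab1, -0.14 to 0.089 for H2-DMa to the DM beta genes, -0.042 to 0.015 for H2-DMb1 to H2-DMb2, -0.33 to 0.003 for DM to DO, -0.057 to 0.11 for Cd74 to H2-Aa plus H2-Ab1, -0.10 to 0.024 for DM to H2-Aa plus H2-Ab1, and -0.22 to 0.16 for Ciita to H2-Ab1. By title they ranged from -0.023 to 0.046 for H2-Eb1 to H2-Ab1, -0.040 to 0.039 for H2-DMa to the DM beta genes, -0.065 to 0.019 for Cd74 to H2-Aa plus H2-Ab1, and -0.11 to 0.024 for the summed level. By description they ranged from -0.061 to 0.032 for H2-DMa to the DM beta genes, -0.088 to 0.069 for H2-Oa to H2-Ob, and -0.027 to 0.050 for DM to H2-Aa plus H2-Ab1. With the scarcer chain of each dimer, DM to DO in the undisputed libraries turned to 0.030. H2-Oa to H2-Ob by title stayed between 0.29 and 0.33 with any 1 library left out. Transcript lengths moved ratio levels and not differences of single-gene ratios; principal transcripts were added after seeing the data.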
